A study of Mus musculus with 16 samples.

Results

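T cell receptor genes are built from V, D, J and C segments, and their transcripts were followed by RNA sequencing in T cell acute lymphoblastic leukaemias (T-ALL) of 16 mice, with 1 library per mouse. The members are all rows of the count tables whose GENCODE mouse biotype is a T cell receptor V, D, J or C gene. This rule found 209 of 41214 genes. They comprise 132 V, 66 J, 4 D and 7 C segments, of which 150 belong to the alpha locus, 38 to beta, 12 to gamma and 9 to delta. The mice formed 8 groups of 2, all of strain C57Bl6. Of them, 12 mice had leukaemia induced by ICN, which the study's design calls Notch-induced, and 4 had p53-ko leukaemia without ICN. Miz1, a transcription factor with a POZ domain, was wild type (Miz1 wt) in 6 mice, and 10 mice expressed the mutant deltaPOZ form that lacks this domain. The ICN groups were Miz1 wt or deltaPOZ, each with p53 wt or p53 ko, and the groups without ICN were Miz1 wt or deltaPOZ with p53 ko. Titles of deltaPOZ mice carry the suffix Lck or Vav, which the labels do not explain. The mice without ICN have no Lck group. Groups are named here by these terms, with Lck or Vav standing for a deltaPOZ group, and the 2 mice of a group are mouse 1 and mouse 2. The sources used here do not give the organ sampled, sex, age or litter of the mice, and the p-values measure the spread between mice.

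In a developing T cell the Rag1 and Rag2 recombinase joins 1 V segment to a J segment, with a D segment between them in the beta and delta loci, and the joined exon is spliced to a C segment. The alpha and beta chains form the receptor of most T cells and the gamma and delta chains that of gamma-delta T cells. The delta segments lie inside the alpha locus, between alpha V and alpha J segments, so a V to J alpha joining removes most of them from that chromosome. In the beta locus each of the D-J-C clusters has its own C segment, and a joining to the second cluster removes Trbc1 from that chromosome. A population grown from 1 cell shares the joined segments of that cell, so the share of the most abundant V segment is used as a measure of how far few rearrangements dominate a sample. Counts per segment do not show which V, D and J were joined to each other, and segments can also be transcribed before they are joined.

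The ends of the 11 beta V segments that led a library, and of Trav16 and Trdv4 from the alpha and delta loci, are printed because the junction that marks a clone lies just after them. The last 60 bases of the GENCODE transcripts are given, with the cysteine triplet of the last TGTG in capitals. The beta V segments come first.
Trbv16: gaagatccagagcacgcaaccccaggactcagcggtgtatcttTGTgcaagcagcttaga
Trbv13-2: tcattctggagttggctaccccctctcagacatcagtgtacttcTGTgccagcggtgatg
Trbv13-3: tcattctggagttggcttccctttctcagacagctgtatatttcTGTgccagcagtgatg
Trbv20: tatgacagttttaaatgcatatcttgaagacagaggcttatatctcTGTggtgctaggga
Trbv15: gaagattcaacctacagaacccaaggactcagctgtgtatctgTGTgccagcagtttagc
Trbv31: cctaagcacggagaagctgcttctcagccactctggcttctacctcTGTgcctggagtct
Trbv3: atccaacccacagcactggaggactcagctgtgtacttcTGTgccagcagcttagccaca
Trbv19: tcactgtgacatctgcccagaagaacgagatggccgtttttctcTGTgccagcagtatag
Trbv5: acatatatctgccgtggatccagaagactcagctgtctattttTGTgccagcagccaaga
Trbv12-2: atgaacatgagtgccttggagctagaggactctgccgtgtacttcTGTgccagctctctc
Trbv17: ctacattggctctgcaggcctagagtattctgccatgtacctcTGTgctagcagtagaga
Trav16: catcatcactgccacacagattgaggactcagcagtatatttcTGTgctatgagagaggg
Trdv4: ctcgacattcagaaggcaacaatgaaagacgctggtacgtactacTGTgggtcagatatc
The letters TGTG, searched on the strand of the segment, occurred in the last 30 bases of 121 of the 132 V segments (91.7%). The cysteine triplet of these segments is followed by a few bases that differ between them, and the D and J segments are attached beyond those. Trbv13-2 and Trbv13-3 differed at 24 of the last 270 bases of their transcripts, and every beta, gamma and delta V segment differed from its nearest other V at 3 or more of these bases. Trbv16 lies on chromosome 6 at chr6:41151740-41152230 (GRCm38, plus strand), Trav16 at chr14:53743104-53743705 (plus strand) and Trdv4 at chr14:54074905-54075515 (plus strand). Trbv31 lies beyond the Trbc2 segment at chr6:41557691-41558452, on the minus strand.

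The libraries held 36463524 to 68523196 gene counts. The receptor segments took 0.0578% to 0.156% of them, and 72 to 118 of the 209 segments had at least 1 count in a library. The sample is labelled as T-ALL, and all 6 T lineage markers on the list (Cd3e, Cd3g, Cd247, Thy1, Lck and Cd5) were detected in every library, with a summed level of 1510 to 3469 CPM (counts relative to library size, scaled by the TMM method). Of the other marker lists, 2 had sums that did not overlap between mice with and without ICN. The sum of 4 erythroid genes (Hba-a1, Hbb-bs, Alas2 and Klf1) was 2867 to 17114 CPM with ICN and 1.83 to 31.0 CPM without. The sum of 6 genes of mature peripheral T cells was 208 to 1146 CPM with ICN and 64.8 to 114 CPM without. The sums of the other 5 lists overlapped (double-positive thymocyte, gamma-delta T, B cell, NK, and granulocyte and macrophage genes).

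The receptor loci stood at different levels in every library, beta highest. The summed level of the beta segments was 441 to 1508 CPM (median 955), that of alpha 26.4 to 183 CPM (median 93.3), that of gamma 0.707 to 242 CPM (median 19.8) and that of delta 0.0174 to 22.3 CPM (median 6.74). The alpha, beta and gamma sums include C segments and the delta sum has none, so the delta level is not the same measure. In V counts alone, some libraries had more delta than gamma and others fewer. ICN Miz1 wt p53 wt mouse 2 had 1143 delta and 78 gamma V counts, and ICN Vav p53 wt mouse 2 had 432 and 2603. Gamma and delta varied over a wider fold range between mice than alpha and beta. In a bulk sample, fewer cells with a segment and less RNA per cell cannot be told apart.

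**Figure D1:**
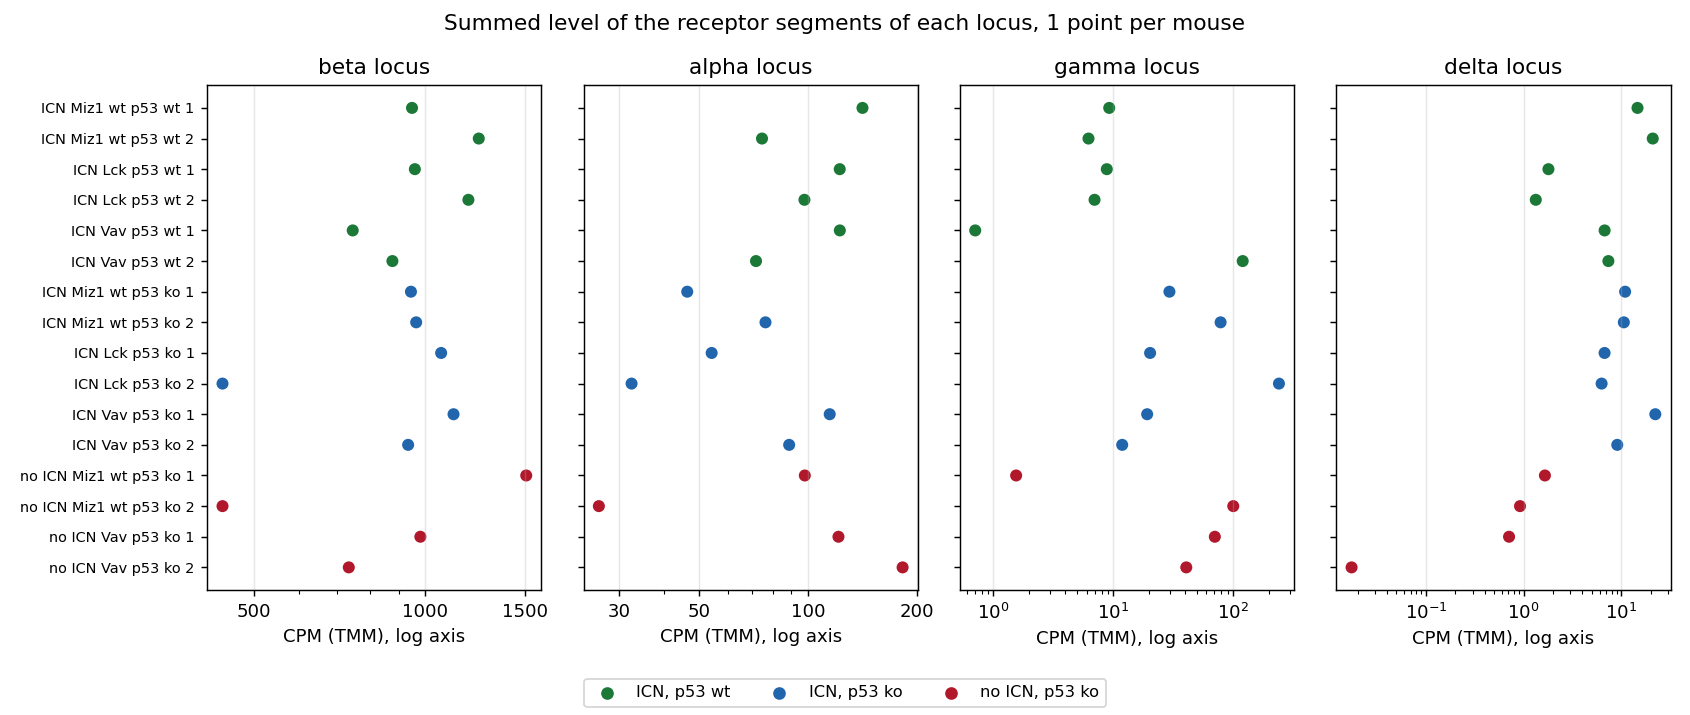
Summed level of the receptor segments of the beta, alpha, gamma and delta loci in each of the 16 libraries, in TMM-scaled CPM on a log axis, with 1 point per mouse coloured by ICN and p53 status. The beta, alpha and gamma sums include C segments and the delta sum has none. Beta lies between 441 and 1508 CPM in all mice, while gamma runs from 0.707 to 242 CPM, and the 4 mice without ICN have delta levels of 0.0174 to 1.65 CPM.

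The constant segments show these levels per length of exon. Trbc2, the second constant segment of the beta chain, had a median of 433 CPM per kb over the 16 libraries (283 to 1162). Trbc1, the first beta constant segment, had a median of 240 CPM per kb (1.14 to 542), and Trac, the alpha constant segment, 68.2 CPM per kb (10.8 to 146). The gamma constants were lower, with medians of 8.62 CPM per kb for Tcrg-C2, 5.71 for Tcrg-C1 and 2.38 for Tcrg-C4. Tcrg-C3 had at most 6 counts in any library except the mouse 1 of the Vav p53 ko group without ICN, where it had 72. The delta constant segment is not analysed here.

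The share of Trbc1 among the 2 beta constants separated a pair of libraries from the rest. Trbc1 made up 27.6% to 58.0% of Trbc1 and Trbc2 counts in 14 libraries. It made up 0.693% in ICN Vav p53 wt mouse 1 (95 of 13704 counts, exact binomial interval 0.561% to 0.847%) and 0.106% in Miz1 wt p53 ko mouse 1 without ICN (34 of 32167 counts, interval 0.0732% to 0.148%). Such intervals have a confidence level of 95% and cover counting error only. In the other mouse of the same groups the share was 58.0% and 32.6%. In both libraries 1 beta V segment made up most beta V counts, Trbv16 with 96.8% and Trbv15 with 95.8%. The next most dominated libraries, with Trbv20 at 94.9% and Trbv13-2 at 91.4%, had Trbc1 shares of 58.0% and 30.5%. The Trbc1 and Trbc2 transcripts differ at 4 of their first 400 bases, so reads from that stretch can be lost as not unique, and counts from the 2 genes rest on the parts that differ.

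The D segments gave no counts and the J segments few. All 4 D segments (Trbd1, Trbd2, Trdd1 and Trdd2) had 0 counts in all 16 libraries, which allows up to 3 counts each in a library. They are 11 to 16 bases long, and Trbd1 and Trbd2 are printed whole because each beta joining starts from one of them and to show how short they are.
Trbd1: gggacagggggc
Trbd2: gggactgggggggc
The J segments are 46 to 66 bases long. Alpha J segments summed to 6 to 94 counts per library and beta J segments to 0 to 135. Dominance of a J segment was given for the 1 library with at least 100 J counts in a locus. Trbj2-1, which lies between Trbc1 and Trbc2, held 31 of 31 beta J counts in Miz1 wt p53 ko mouse 1 without ICN. ICN Vav p53 wt mouse 1, the other library with little Trbc1, had 0 beta J counts. Both lie below that minimum. In ICN Lck p53 ko mouse 1, Trbj1-3 held 127 of 135 beta J counts (94.1%, exact interval 88.7% to 97.4%). This J segment belongs to the cluster before Trbc1, and the same library had a Trbc1 share of 55.9%, against 29.5% in the other mouse of its group. Trbj1-3 also held most beta J counts in libraries with fewer of them. It held 50 of 50 in Vav p53 ko mouse 1 without ICN. In Miz1 wt mouse 1 with ICN it held 32 of 39 counts with p53 wt and 30 of 32 with p53 ko. Trbc1 shares there were 54.5%, 40.2% and 46.6%. In ICN Vav p53 ko mice 1 and 2 it held 13 of 15 and 18 of 23, at Trbc1 shares of 27.6% and 28.3%. Trbj1-3 and Traj2, which is described below, are printed with the letters TTNGG and the base after them in capitals. These letters, which encode the start of the conserved J motif, occur in 59 of the 66 J segments (89.4%).
Trbj1-3: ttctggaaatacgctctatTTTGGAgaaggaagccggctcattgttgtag
Traj2: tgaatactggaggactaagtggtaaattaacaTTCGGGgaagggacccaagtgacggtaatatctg

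Each leukaemia had its own pattern of beta V segments. A V segment was most abundant with a median of 51.9% of the beta V counts of a library (22.7% to 96.8%, n = 16), and in 8 of 16 libraries it passed 50%. The leading segment was one of 11 different ones. The effective number of V segments (inverse Simpson, which equals 1 when a single segment holds all counts) had a median of 2.58 and ran from 1.07 to 7.71. All 21 beta V segments had counts, and 6048 to 32771 beta V counts stood behind each share.

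Among the p53-wt leukaemias with ICN, single segments led strongly. Trbv16 held 33% and Trbv20 28.8% in Miz1 wt mouse 1, while Trbv13-3 held 83.0% in mouse 2. Trbv13-2 led in both Lck mice, with 91.4% in mouse 1 and 55.3% in mouse 2, where Trbv13-3 followed with 28.8%. In the Vav group Trbv16 held 96.8% in mouse 1 and Trbv20 94.9% in mouse 2. So 5 of these 6 libraries had 1 segment over 50%, and no segment led in both mice of a group except Trbv13-2 in the Lck group.

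In the p53-ko leukaemias with ICN, 1 of 6 libraries had a segment over 50%. That was Lck mouse 1, in which Trbv16 held 77.5%. In Lck mouse 2 the leading Trbv5 held 22.7%, the lowest leading share of all 16 libraries, and Trbv20 held 17.1%. Trbv5 overlaps 5830405F06Rik, a long non-coding RNA gene on the same strand, so its counts are uncertain. Trbv19 held 48.5% and Trbv13-2 37.7% in Miz1 wt mouse 1, a pair that made up most of the V counts. Trbv15 held 30.2% and Trbv5 16.5% in Miz1 wt mouse 2. In the Vav group Trbv12-2 led mouse 1 with 30.7%, ahead of Trbv26 with 24.6%. In Vav mouse 2 Trbv17 held 34.2% and Trbv12-2 27.4%. In 5 of these 6 libraries no single segment reached 50%.

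The 4 leukaemias without ICN had 1 mouse of each group over 50%. Trbv15 held 95.8% in Miz1 wt mouse 1, and Trbv13-2 led mouse 2 with 30.4%, followed by Trbv26 with 24.8%. Trbv31, the V segment beyond the beta constants, held 74.0% in Vav mouse 1, with Trbv16 at 15.6%. Trbv3 held 45.0% and Trbv12-2 29.3% in Vav mouse 2.

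**Figure D2:**
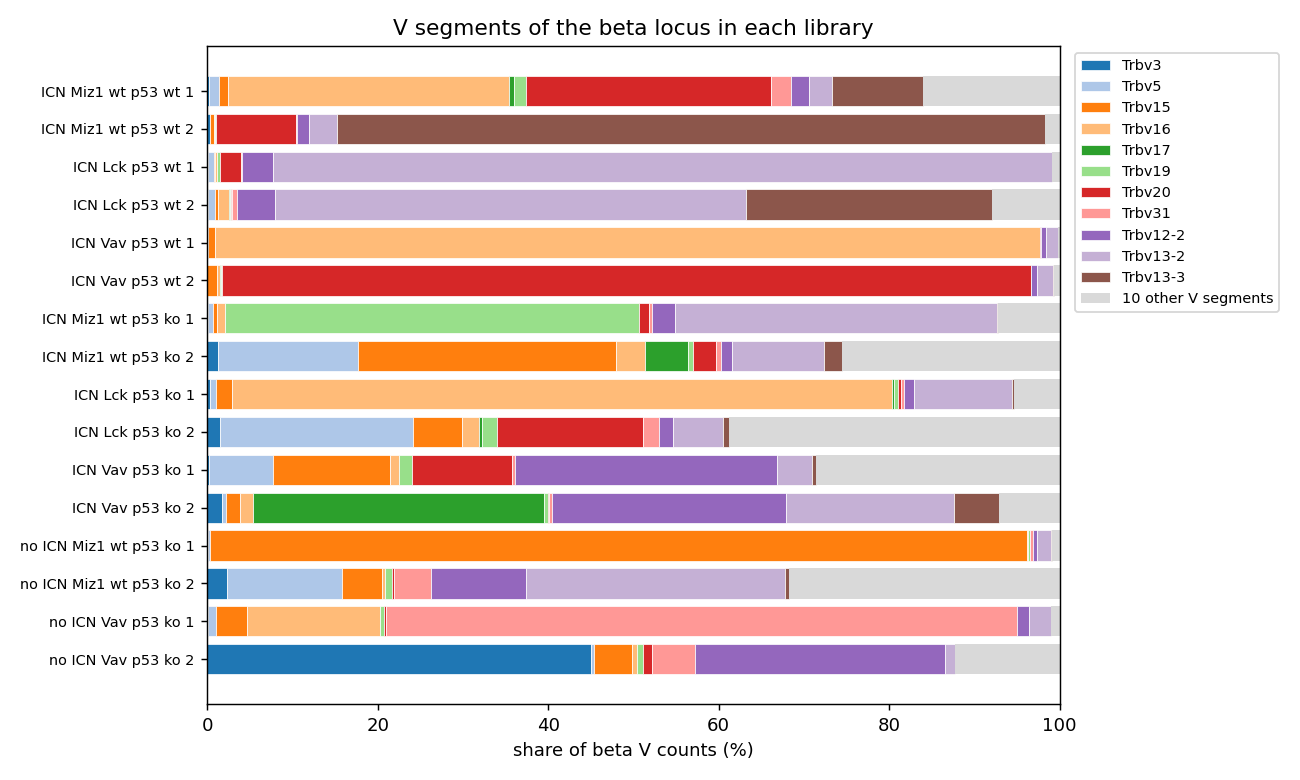
Share of each beta V segment in the beta V counts of each library, 1 bar per mouse, with the 11 segments that lead at least 1 library in colour and the 10 others in grey. The bars of 8 mice are filled over 50% by 1 colour, and the leading colour differs within every group except ICN Lck p53 wt.

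The share of the leading beta V segment was 40.6% ± 20.0 (SD, n = 6) in p53-ko and 75.8% ± 25.9 (SD, n = 6) in p53-wt leukaemias with ICN. The difference, averaged within Miz1 wt, Lck and Vav, was -35.1 percentage points, and it did not pass the threshold (exact permutation test within these strata, two-sided, p = 0.0556, 0.525 after Benjamini-Hochberg adjustment over 31 tests). The ranges overlapped, since p53-wt libraries ran from 33% to 96.8% and p53-ko libraries from 22.7% to 77.5%. The 31 tests compared the share of gene counts and the leading V share of each locus under deltaPOZ, p53, ICN and the Lck or Vav suffix. None had an adjusted p under 0.05, and the lowest adjusted p was 0.525. For deltaPOZ against Miz1 wt the leading beta V share was 62.3% ± 28.2 (SD, n = 10) against 53.5% ± 28.9 (SD, n = 6), with an exact permutation p of 0.552 and an adjusted p of 0.815. The smallest p these designs allow is at best 0.0556 for Lck against Vav, 0.0111 for ICN and 0.00926 for p53, so 1 value on its own could not pass there after adjustment over 31 tests.

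Alpha V segments were less concentrated than beta V segments. The leading alpha V segment had a median of 17.7% of alpha V counts (8.30% to 79.5%), and the effective number of segments had a median of 11.9. In the 9 libraries with at least 1000 alpha V counts the median share was 32.3%. The alpha locus has 99 V segments here and the beta locus 21. Only Trav16 passed 50%, with 79.5% in ICN Vav p53 wt mouse 1 (2068 of 2601 counts) and 57.7% in ICN Lck p53 wt mouse 1 (1582 of 2744 counts). With pseudogene segments added to the V counts, 1 library passed 50%, and the highest share was 74.3%. The 2 libraries named are also 2 of the 4 whose leading beta V segment passed 90%. In ICN Vav p53 wt mouse 1 Traj45 held 25 of 45 alpha J counts, against at most 3 counts in any other library. Rag1 and Rag2, whose products cut the segments, were lowest in the same pair. Rag1 stood at 8.65 CPM and Rag2 at 0.0764 CPM in ICN Vav p53 wt mouse 1, and at 46.8 and 1.58 CPM in ICN Lck p53 wt mouse 1, against at least 474 and 8.06 CPM in the other 14 libraries. This is a description of 2 mice picked for their values, with no test.

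In the other 14 libraries the leading alpha V segment held 8.30% to 38.6%. Trav21-dv12, the alpha V segment nearest to the J segments, led 4 of them, with 38.6% as its highest share in ICN Miz1 wt p53 wt mouse 1. Segments with dv in their name were counted in the alpha locus only, and the delta locus holds those whose names start with Trd. Trav17 led 2 libraries, with 37.7% in ICN Vav p53 ko mouse 2. The row B230359F08Rik, which GENCODE annotates as a T cell receptor V gene of the alpha locus, led in ICN Miz1 wt p53 ko mouse 1 with 16.8% and in ICN Lck p53 ko mouse 1 with 17.8%.

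**Figure D3:**
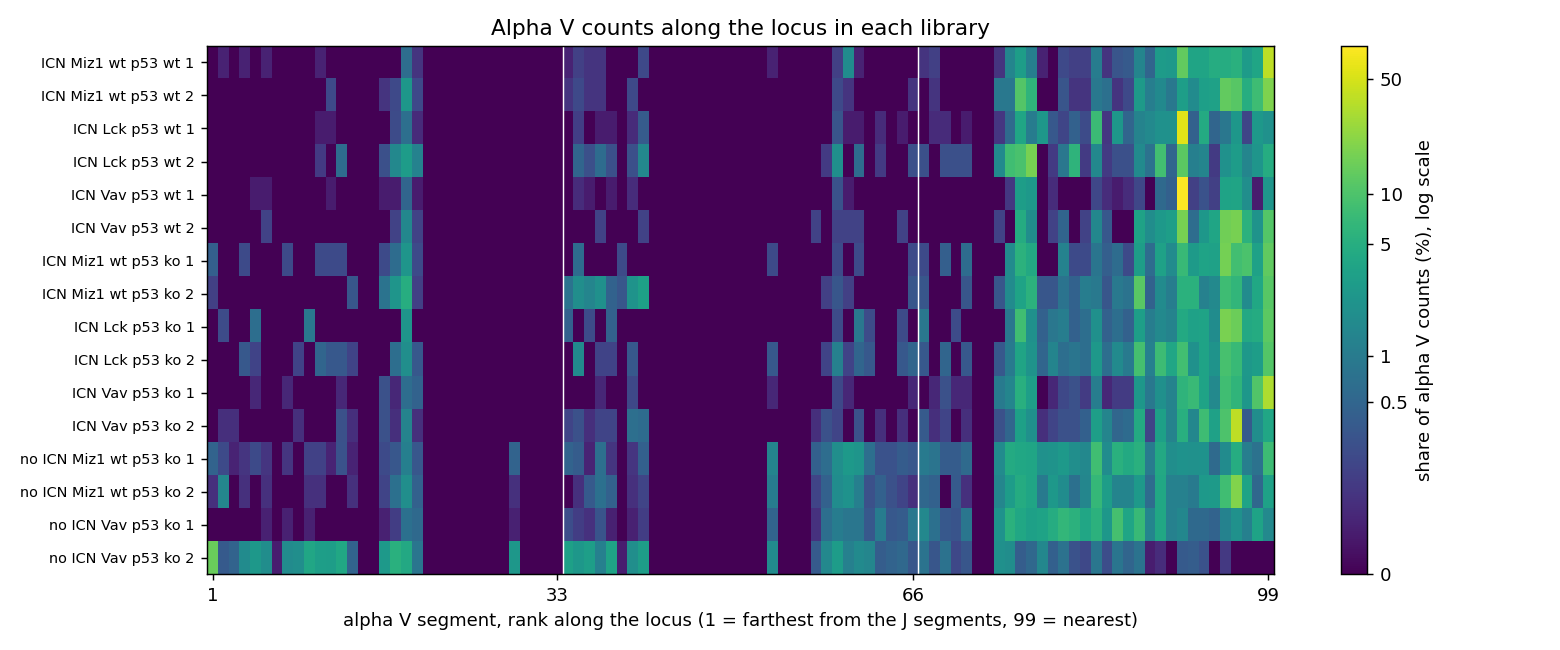
Share of each of the 99 alpha V segments in the alpha V counts of each library, on a log colour scale, ordered along the chromosome from the segment farthest from the J segments (rank 1) to the nearest (rank 99), with white lines between the 3 parts of 33. The bottom row, Vav p53 ko mouse 2 without ICN, is bright on the left and dark on the right, the reverse of the other 15 rows.

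The position of the alpha V segments showed 1 library apart. The 99 alpha V segments were divided by position into 3 parts of 33, a division chosen after the values were seen. In 15 libraries the part nearest to the J segments held 78.3% to 98.7% of alpha V counts and the farthest part 0.730% to 8.60%. In Vav p53 ko mouse 2 without ICN the nearest part held 14.6%, the middle part 30.7% and the farthest part 54.7%. Its leading segment was Trav1, the farthest one (chr14:52427928-52428876, plus strand), with 371 counts, while no other library had more than 9. The 9 V segments nearest to the J segments summed to 29 counts in this library and to 223 to 2379 in the others. It also had 68 counts of Traj2, the last of the 50 alpha J segments (chr14:54217836-54217901, plus strand), and every other library had 0. Its Trac level, 137 CPM, was the highest of all, and its 5 delta V segments together had 1 count. Most alpha V and J counts of this library thus lay toward the outer ends of the arrays, and most V counts of the other libraries close to the J array.

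Many alpha V segments are near copies of each other. In the mouse the middle of this array holds duplicated blocks, and 47 of the 99 alpha V segments matched another V with at most 2 differences in 270 bases. These had a median of 0 counts over all libraries, with 30 at 0, while the 52 others had a median of 182 counts and none at 0. The tables list 45.8% to 63.7% of a library's total as alignments that were not unique, and these count for no gene. Their part in the segments at 0 was not tested.

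Gamma segments were measured from few counts in most libraries, and 12 of 16 libraries had at least 100 gamma V counts. Trgv2 led 9 of these and Tcrg-V4 led 3, with a leading share of 34.9% to 75.1% (median 53.6%). The gamma level was over 100 CPM in 3 libraries. In ICN Lck p53 ko mouse 2 the gamma segments reached 242 CPM, with Tcrg-C4 at 54.9, Tcrg-C2 at 51.8 and Tcrg-C1 at 43.4 CPM. In ICN Vav p53 wt mouse 2 they reached 120 CPM, with Tcrg-C2 at 49.8 CPM and Trgv2 holding 75.1% of V counts. In Miz1 wt p53 ko mouse 2 without ICN they reached 100.5 CPM, with Tcrg-C2 at 26.2, Tcrg-C1 at 22.4 and Tcrg-C4 at 21.1 CPM. The other mouse of these groups stood far lower, at 20.3, 0.707 and 1.55 CPM. The summed level of 6 marker genes of gamma-delta T cells (Sox13, Blk, Maf, Zbtb16, Il23r and Tmem176a) was 25.9, 20.7 and 16.8 CPM in these libraries and 7.24 to 95.2 CPM over all 16, and its part in the gamma level was not tested. Over 300 bases Tcrg-C1 is 97.3% identical to Tcrg-C2 and 95.7% to Tcrg-C3, so the separate counts of these 3 are uncertain, and 82.7% identical to Tcrg-C4. The V segments Tcrg-V4 to Tcrg-V7 overlap the antisense gene Gm31887, from which their reads cannot be told apart without the counter's strand setting.

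Delta segments were read almost entirely through their V segments, since the 2 delta J segments summed to 0 to 2 counts per library. Trdv4, a V segment used by the delta chain, led 7 of the 10 libraries with at least 100 delta V counts, Trdv5 led 2 and Trdv2-2 led 1. The leading share was 38.7% to 85.8% (median 72.8%). Trdv4 had 476 and 951 counts in the ICN Miz1 wt p53 wt mice, 4 and 1 in the Lck p53 wt mice, and 0 and 345 in the Vav p53 wt mice. In the p53-ko mice with ICN it had 310 and 376 counts (Miz1 wt), 193 and 100 (Lck), and 859 and 28 (Vav). All 4 mice without ICN had 0, which allows up to 3 counts in a library. The 6 p53-ko libraries with ICN thus all lay above the 4 without, and 3 of 6 p53-wt libraries with ICN were at or near 0. Trdv4 and the antisense gene Gm30275 overlap, as do Trdv2-1 and Trdv2-2 with Gm43647, and the sources used here do not give the counter's strand setting, so reads of such partners cannot be told apart.

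**Figure D4:**
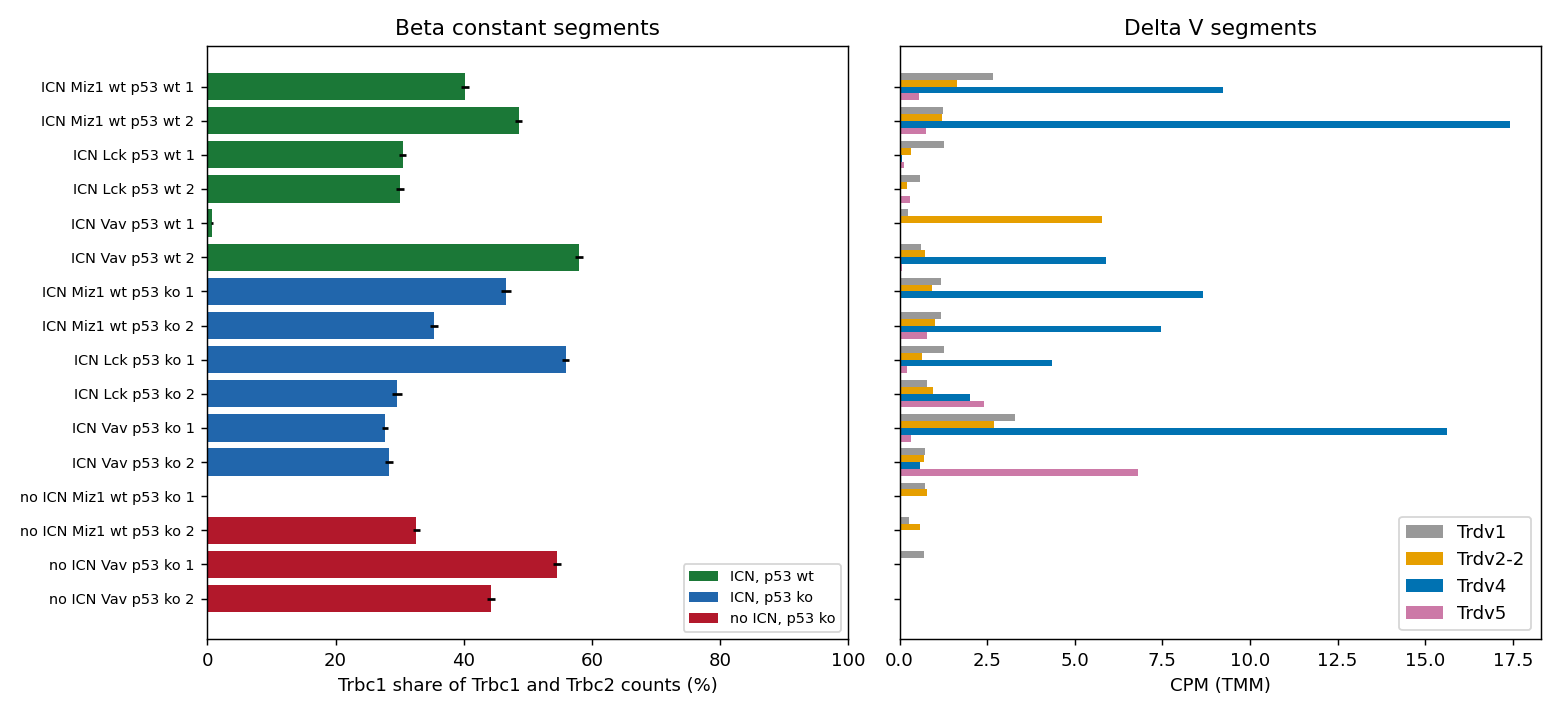
Left, share of Trbc1 in the Trbc1 and Trbc2 counts of each library with its 95% exact binomial interval; right, TMM-scaled CPM of 4 delta V segments in the same libraries. Trbc1 is near 0 in ICN Vav p53 wt mouse 1 (0.693%) and in Miz1 wt p53 ko mouse 1 without ICN (0.106%), and no mouse without ICN has Trdv4 or Trdv5.

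The comparison of p53-ko leukaemias with ICN (6 mice) and without ICN (4 mice) was the one in which single receptor segments passed the test across all genes. A filter on low counts kept 83 of the 209 segments among 17470 genes. Counts were compared with edgeR's quasi-likelihood test with Benjamini-Hochberg adjustment over all 17470 genes and a threshold of 0.05. With ICN, 8 segments were higher and 21 lower. Of all genes tested, 28.9% were called, 15% higher and 13.9% lower, so the count of higher segments lies below the share for all genes and that of lower segments above it. At an unadjusted p under 0.05 were 41 segments and 40.8% of all genes. Without ICN Miz1 wt p53 ko mouse 1 the number called fell to 19. The segments that passed the filter did so partly through the group in which they are high, and these counts are a description. By locus, 20 of 45 alpha V segments tested were lower and none higher, 5 of 21 beta V segments were higher and 1 lower, and 3 of 5 delta V segments were higher. None of the 8 gamma segments tested, Trac, Trbc1 or Trbc2 passed the threshold.

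The largest increases among the 83 segments were those of the delta V segments Trdv4 and Trdv5. Trdv4 stood at 0.585 to 15.6 CPM with ICN (median 5.91) and was at 0 counts in all 4 mice without, so the groups did not overlap. Its level from counts pooled over mice was at least 116-fold higher with ICN, taking 3 counts in each of the 4 libraries as the floor (log2 fold change 11.33, SE 2.31, adjusted p = 0.00643). Of the 1866 Trdv4 counts with ICN, 859 were in Vav mouse 1 and 28 in Vav mouse 2. Trdv5, a delta V segment in inverted orientation beyond the other delta segments, stood at 0 to 6.81 CPM with ICN (median 0.561) and at 0 without. One of the 6 mice with ICN was at 0 too, so the groups overlapped. Of the 513 Trdv5 counts with ICN, 326 were in Vav mouse 2 and 120 in Lck mouse 2. By the same floor and pooling Trdv5 was at least 31.9-fold higher (log2 fold change 8.57, SE 2.13, adjusted p = 0.0160). That call was lost without Vav p53 ko mouse 2 without ICN or without ICN Miz1 wt p53 ko mouse 2, with adjusted p values up to 1.0. Trdv2-2 was 0.631 to 2.71 CPM with ICN and 0 to 0.776 CPM without (log2 fold change 3.55, SE 0.76, adjusted p = 0.00569). Trdv1 and Trdv2-1 had log2 fold changes of 1.65 and 3.42 and did not pass the threshold (adjusted p = 0.182 and 0.0635). The summed delta locus took 0.00111% ± 0.000615 (SD, n = 6) of gene counts with ICN and 8.18e-05% ± 6.51e-05 (SD, n = 4) without, all 6 mice above all 4. On this single value the exact permutation test gave p = 0.0222, adjusted p = 0.525, where the smallest p this design allows is 0.0111.

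Among beta V segments the higher calls came mostly from single mice. Trbv17 stood at 0.224 to 174 CPM with ICN (median 0.584) and 0.0574 to 0.375 CPM without (log2 fold change 5.65, SE 1.78, adjusted p = 0.0344), and 8330 of its 9530 counts with ICN were in Vav mouse 2, which it leads. Trbv19 stood at 1.85 to 220 CPM with ICN and 0.689 to 1.69 CPM without (log2 fold change 3.92, SE 1.04, adjusted p = 0.0167), and 7861 of its 8721 counts were in Miz1 wt mouse 1. Without that mouse Trbv19 differed by 1.17 on the log2 scale and was not called, and the call was also lost without any 1 of the 4 mice without ICN (adjusted p = 0.0534 to 0.0704). The Trbv17 call was lost without any 1 of 8 libraries and its log2 fold change ranged from 2.78 to 6.51. Trbv12-1 was 0.503 to 26.0 CPM with ICN and 0.0347 to 0.387 CPM without, with no overlap (log2 fold change 5.04, SE 0.93, adjusted p = 0.00258). Of its 1585 counts with ICN, 1308 were in Miz1 wt mouse 2, and it stayed called with any 1 of the 16 libraries left out. Without that mouse its log2 fold change was 2.63. Trbv30 was 0.0626 to 9.43 CPM with ICN and 0 to 0.125 CPM without (log2 fold change 4.61, SE 1.09, adjusted p = 0.0109), with 475 of its 514 counts in Miz1 wt mouse 2, and the call was lost without that mouse (adjusted p = 0.0564). Trbv13-2 was also called higher (log2 fold change 2.63) and Trbv31 lower (log2 fold change -3.33). Of the Trbv31 counts without ICN, 10790 of 11873 lay in Vav mouse 1, and the call was lost without it or without either Miz1 wt mouse with ICN.

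The lower segments were all alpha V segments except Trbv31. The 20 alpha V segments called lower had log2 fold changes of -5.80 to -2.51 (median -3.97) and few counts, 404 in the 6 mice with ICN and 3072 in the 4 without. Each mouse without ICN had 366 to 1262 of these counts and each mouse with ICN 31 to 101, which describes segments chosen as lower in these same mice. The 3 segments with the largest decreases had 0 to 2 counts per mouse with ICN. Trav7-2 had 3 counts with ICN and 59 without (26.4-fold, counting interval 8.60 to 132, adjusted p = 0.0159). Trav8-1 had 2 and 43 counts (28.8-fold, interval 7.51 to 246, adjusted p = 0.00717). Trav13n-4 had 3 and 121 counts (54.1-fold, interval 18.1 to 266, adjusted p = 0.00341). Trav9-2, Trav9n-4 and Trav4-3 followed, with log2 fold changes of -4.98, -4.83 and -4.57 (adjusted p = 0.0157, 0.00694 and 0.00534). In these 6 segments each mouse without ICN had at least 3 counts. Trav7-2 was not called without Vav p53 ko mouse 2 without ICN, nor Trav9-2 without ICN Miz1 wt p53 ko mouse 1, while the other 4 stayed called without any 1 library. Of all 20, 12 lost their call without at least 1 library and 8 did not. By position along the locus, the called segments were 13 of 29 tested in the part nearest to the J segments, 6 of 11 in the middle part and 1 of 5 in the farthest, and 2 of the 20 have a near-identical V within 2 bases. The total alpha locus level, which includes Trac, was 0.00693% ± 0.00320 (SD, n = 6) of gene counts with ICN and 0.0109% ± 0.00682 (SD, n = 4) without. It did not pass the threshold (exact permutation p = 0.144, adjusted p = 0.560). Over all 16 libraries Trac held 51621 counts and the alpha V segments together 22248. Raw alpha V counts alone were 454 to 1540 per mouse with ICN and 1130 to 2551 without, and this sum was not tested.

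**Figure D5:**
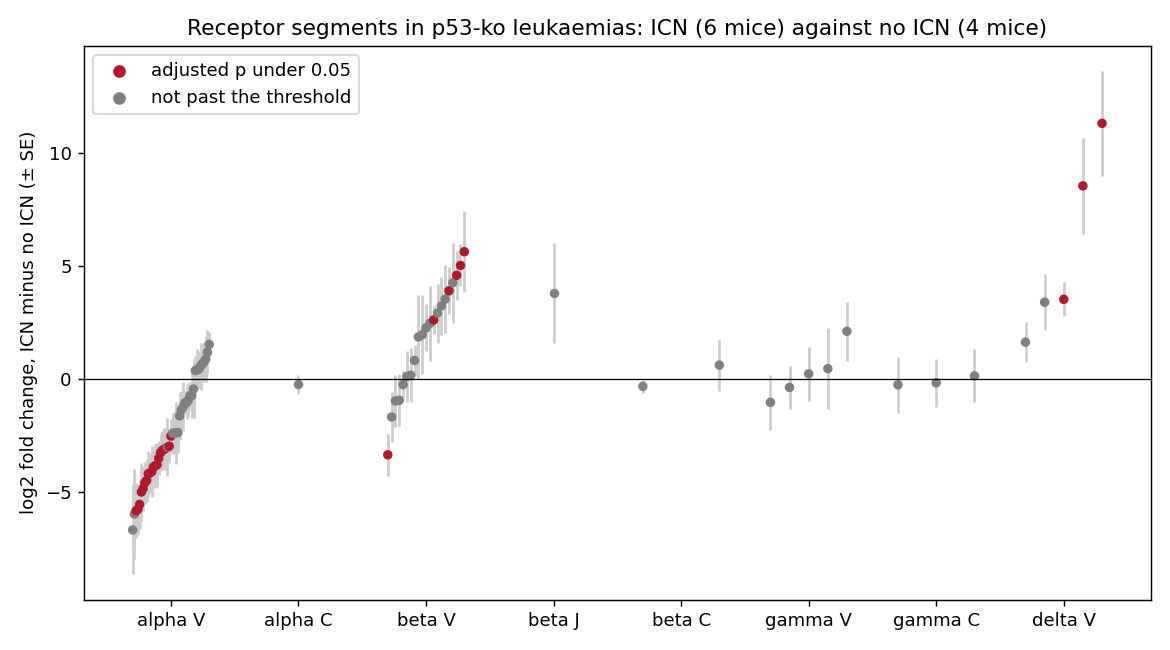
Log2 fold change, ICN minus no ICN in p53-ko leukaemias, with its standard error, for the 83 receptor segments that passed the filter, by locus and class, with segments at an adjusted p under 0.05 in red. The 20 red alpha V segments all lie below 0, and Trdv4 (11.33) and Trdv5 (8.57) are the highest points.

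Groups also did not overlap for 15 segments lower with ICN, all alpha V and 14 of them called, and for 4 higher, 3 of them called. Of all genes, 7.81% were lower and 10.6% higher without overlap. Sums of marker lists differed with ICN as well. In p53-ko mice the erythroid sum was 4047 to 17114 CPM with ICN and 1.83 to 31.0 without. The sum of 5 double-positive thymocyte genes (Cd4, Cd8a, Cd8b1, Rag1 and Rag2) was 1506 to 2615 CPM with ICN and 2704.5 to 8169 without. Among them Rag1 alone did not overlap, at 479 to 1429 CPM with ICN and 1751 to 5815 CPM without. Rag2, Cd4, Cd8a and Cd8b1 overlapped, with log2 fold changes of -1.23, 0.57, 0.0072 and -0.34. The granulocyte and macrophage sum was 137 to 6120 CPM with ICN and 54.0 to 208 CPM without, which overlap. Their part in the differences of the segments was not tested.

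Of 15 genes of the receptor complex and its assembly, 3 were lower with ICN, against 13.9% of all genes, and none higher, against 15% (median log2 fold change -0.49, against -0.02 over all genes). Bcl11b, a transcription factor of T cell commitment, stood at 190 to 275 CPM with ICN and 466.5 to 957 CPM without (log2 fold change -1.56, SE 0.24, adjusted p = 0.000880). Tcf7, another T lineage factor, stood at 438 to 603 CPM with ICN and 740 to 1052 CPM without, also with no overlap (log2 fold change -0.84, SE 0.21, adjusted p = 0.0122). Lck, the kinase that acts next to the receptor, was 742 to 1104 CPM with ICN and 1045 to 2035 CPM without, which overlap (log2 fold change -0.71, SE 0.17, adjusted p = 0.0106). Rag1 did not pass the threshold (log2 fold change -2.08, SE 0.94, adjusted p = 0.121), at 479 to 1429 CPM with ICN and 1751 to 5815 CPM without, and Dntt, which adds bases at the junctions, had a log2 fold change of -1.69 (adjusted p = 0.177).

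No receptor segment passed edgeR's threshold for deltaPOZ against Miz1 wt. In the average of deltaPOZ against Miz1 wt over the 3 backgrounds, 0 of 83 segments and 0.0172% of all genes were called by edgeR, and 15 of 83 segments had an unadjusted p under 0.05, against 4.92% of all genes. DESeq2, the other tool, called 3. Without ICN Miz1 wt p53 ko mouse 1, edgeR called 1. The lowest adjusted p was 0.434, for Trbv12-1 (log2 fold change -2.64, SE 0.63). In ICN p53 wt edgeR called 0 segments (0% of all genes) and DESeq2 2, with 11 segments and 1.87% of all genes at an unadjusted p under 0.05. There the deltaPOZ and Miz1 wt mice did not overlap for 1 segment higher (5.45% of all genes) and 14 lower (5.95%) in deltaPOZ. In ICN p53 ko edgeR called 0 (0.00572% of all genes, and 1 segment without Miz1 wt mouse 1) and DESeq2 3, with 5 segments and 3.78% of all genes at an unadjusted p under 0.05. Groups did not overlap for 1 segment higher (4.4% of all genes) and 4 lower (4.5%). Without ICN edgeR called 0 (0%) and DESeq2 2, with 10 segments and 7.68% of all genes at an unadjusted p under 0.05. Groups of 2 did not overlap there for 10 segments higher (12.8% of all genes) and 11 lower (13.2%). Trac had log2 fold changes of -0.18, 0.03 and 1.79 in these backgrounds, with adjusted p values of 1.0, 1.0 and 0.537. The difference of the deltaPOZ effect between p53 ko and p53 wt was called for 0 segments (0% of all genes), with 5 segments and 2.6% of all genes at an unadjusted p under 0.05. By DESeq2 it was called for 1 segment. The average and the comparisons within backgrounds share libraries.

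With ICN, p53 ko against p53 wt called 0 of 83 segments by edgeR and 0.195% of all genes (0.12% higher, 0.0744% lower), with 14 segments and 15.5% of all genes at an unadjusted p under 0.05. DESeq2 called 10 segments, and edgeR called 1 when either ICN Miz1 wt p53 ko mouse was left out. The lowest adjusted p was 0.0806, for Trbv26, which stood at 0.0171 to 3.10 CPM in p53-wt and 0.501 to 120 CPM in p53-ko leukaemias (log2 fold change 6.09, SE 1.32). Tcrg-V4 and Trbv30 were the 2 segments whose groups did not overlap, both higher in p53 ko, against 0.973% of all genes higher and 1.63% lower without overlap. Tcrg-V4, a V segment of the gamma chain, stood at 0.0191 to 0.384 CPM in p53 wt and 0.527 to 28.2 CPM in p53 ko (log2 fold change 4.34, SE 0.98, adjusted p = 0.0908), with the overlap with an antisense gene described above. Trav16 had the opposite sign (log2 fold change -3.38, adjusted p = 0.132), with its highest levels, 39.5 and 31.2 CPM, in the 2 p53-wt libraries that it leads by over 50%. Lck against Vav with ICN called 0 segments by edgeR and by DESeq2 (0% of all genes). At an unadjusted p under 0.05 were 9 segments and 3.15% of all genes, and groups did not overlap for 1 segment higher (1.6% of all genes) and 1 lower (1.29%).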

How the data were processed

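The deposited values are raw counts per gene, 1 table per mouse, which the authors made from stranded mRNA libraries (TruSeq kit, per the labels' protocols). TopHat2 (version 2.0.10), HTSeq, SAMtools and DESeq are named in the submitters' processing notes, as are builds GRCm38 and mm10. For the annotation release, counting mode and strand setting, nothing is given in the sources used here. Rows that name no gene were left out. They are alignments that were not unique (45.8% to 63.7% of the total), reads assigned to no feature (14.2% to 21.5%) and ambiguous reads (0.138% to 0.331%).

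Biotypes, positions and sequences came from GENCODE mouse release M21 (GRCm38). It lists further segments that are not analysed here, and the table of RefSeq promoters held no member. The members and gene lists were chosen with earlier results of these data known. In the erythroid and the double-positive thymocyte list, 1 marker each is not reported here and was left out of the sum. Libraries held 36463524 to 68523196 gene counts (median 50171983). Mouse 1 and mouse 2 of a group are in accession order, a name only.

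All genes were fitted in edgeR 4.0.16 (R 4.3.3): filterByExpr (17470 genes), TMM factors of 0.952 to 1.05, 1 mean per group, 8 residual degrees of freedom, quasi-likelihood F test, Benjamini-Hochberg adjustment with a threshold of 0.05. The ICN comparison averages Miz1 wt and deltaPOZ mice, with the Lck and Vav groups averaged on the ICN side. The standard error is the log2 fold change divided by the square root of F. The code was tested on simulated data. Leading V shares used libraries with at least 100 V counts in a locus, and single values were compared by exact permutation tests within strata (SciPy 1.17.1). The genes named are all C and D segments and the leading V segment of each library with at least 100 V counts. Some of the leading J segments are named too. Also named are the 6 segments with the largest change in each direction where over 12 were called (all otherwise), and the assembly list. Trbv26, Tcrg-V4, Trav16 and Trbv30 under p53, Trbv13-2, Trbv31, Trdv1, Trdv2-1 and Trdv2-2 under ICN, Traj45 and Traj2 as J segments, and the comparison of Rag1 and Rag2 levels with alpha V shares were chosen after their values were seen. Alternatives were DESeq2 1.42.0, its size factors in edgeR, no filter, library totals without the segments, each mouse left out, the Lck groups left out, V subgroups in place of segments, pseudogene segments added, a higher count minimum, and, chosen after seeing the data, shares per kb of exon.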

Additional observations from a re-analysis of the deposited data

Results flagged for a closer look

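The deltaPOZ p53-wt mice with ICN and the deltaPOZ p53-ko mice with ICN form groups of 4. In these same mice 34 tests of a value or segment were made. Each tested the mouse farthest from the others by Dixon's criterion, which chance alone passes in about 1 in 20 tests. That rate is for normally distributed values, and levels were not put on a log scale. The leading beta V share of ICN Lck p53 wt mouse 2, 55.3%, stood apart from 91.4%, 94.9% and 96.8% in the other deltaPOZ p53-wt mice with ICN. The Trbc1 share of ICN Lck p53 ko mouse 1, 55.9%, stood apart from 27.6%, 28.3% and 29.5% in the other deltaPOZ p53-ko mice with ICN. Trbj1-3, a J segment of the first cluster, held 127 of its 135 beta J counts. It also held 13 of 15 and 18 of 23 in ICN Vav p53 ko mice 1 and 2, with Trbc1 shares of 27.6% and 28.3%.

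In the groups tested, the gamma segments stood apart in 2 mice. In ICN Lck p53 ko mouse 2 the gamma locus reached 242 CPM against 11.9, 19.2 and 20.3 CPM in the other deltaPOZ p53-ko mice with ICN, with Tcrg-C1 at 43.4, Tcrg-C2 at 51.8 and Tcrg-C4 at 54.9 CPM. In ICN Vav p53 wt mouse 2 the gamma locus reached 120 CPM (120.5) against 0.707, 7 and 8.85 CPM, with Tcrg-C1 at 14.4, Tcrg-C2 at 49.8 and Tcrg-C4 at 11.9 CPM. The same mouse had Trdv4 at 5.88 CPM, against 0, 0.0226 and 0.0789 CPM in the other deltaPOZ p53-wt mice with ICN. These values share libraries and reads of related genes, so they are not independent of each other.

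Pseudogene segments of the receptor loci, which the comparisons do not use, had counts in every library: 16 such rows summed to 17 counts in the lowest library and 591 in the highest (median 59.5). Trav8-2 held most of them, with 1168 counts over all libraries, and 8 of the 16 rows were at 0.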

How the results depend on the processing

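No paired analysis was possible because the replicate numbers follow accession order and pair no mice. DESeq2 called 3 segments in the deltaPOZ average, 2 in ICN p53 wt, 3 in ICN p53 ko, 2 without ICN, 1 for the difference and 10 under p53, where edgeR called 0; it called 35 against 29 for ICN, and Trav7-2 was not among them (adjusted p = 0.0841). Without the filter on low counts edgeR called 17, 24, 13, 29, 18 and 29 in the same order, 67 for ICN and 17 for Lck against Vav; the cause was not tested. DESeq2's size factors and library totals without the segments left 29 called for ICN, the same 29 segments in both. With mice left out in turn the number called was 19 to 39 for ICN, 0 to 1 for the deltaPOZ average, for ICN p53 ko and for p53, and 0 in the other comparisons. Of 31 single values, 0 to 1 passed under deltaPOZ with a mouse left out: the delta share, -0.00058 percentage points (adjusted p = 0.0344), without ICN Vav p53 ko mouse 1. At 1000 or more V counts the median leading share was 38.4% for gamma (5 libraries) and 32.3% for alpha (9 libraries). With pseudogene segments added, 1 library passed 50% at the alpha locus, where 2 did without them. Values with no call changed sign under some settings: the leading beta share, Lck against Vav, was 5.07 points by V subgroup, the leading delta share under deltaPOZ 1.07 by V subgroup, the leading gamma share for ICN -1.51 per kb of exon, and the gamma share for ICN -0.00198 without the Lck groups. With a mouse left out, the beta share ranged from -0.0252 to 0.0253 points for ICN, -0.0183 to 0.0101 for Lck against Vav, -0.0258 to 0.00792 for deltaPOZ and -0.0166 to 0.00225 for p53. The leading beta share ranged from -16.2 to 11.2 for Lck against Vav and -2.60 to 19.2 for deltaPOZ, the leading delta share from -6.57 to 3.47 for deltaPOZ and -9.25 to 0.782 for p53. The gamma share ranged from -0.00192 to 0.00348 for ICN, -0.00249 to 0.00892 for Lck against Vav and -0.000148 to 0.00345 for deltaPOZ, and the leading gamma share from -0.156 to 10.7 for ICN and -5.41 to 6.96 for Lck against Vav. Depth limits the J segments, most alpha V segments, and gamma and delta V shares in libraries under 100 V counts.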
